A study of Mus musculus with 8 samples.

Results

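The genes described here encode the respiratory chain subunits that are read from the nuclear genome. They are all genes of the count table whose symbol starts with Nduf, Uqcr, Atp5 or Cox4 to Cox8, or is Sdha, Sdhb, Sdhc, Sdhd, Cyc1 or Cycs. Pseudogenes ending in -ps, with or without a number, were left out (Cox7c-ps1 and Ndufs5-ps), and further copies of a gene were summed with it. This gave 99 of 39388 genes, and 85 of the 99 passed the filter on low counts. By biochemical assignment 40 belong to complex I, 4 to complex II, 9 to complex III, 1 is cytochrome c, 19 belong to complex IV, 17 to complex V, and 9 that the symbols also take in are assembly factors. The 40 include Ndufa11b, Ndufb4b and Ndufb4c, untested genes for which no coding transcript was found. Whether they make a subunit of the complex is not known here.

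RNA was sequenced from spheroids of 4T1, a mouse mammary carcinoma line that forms tumours in BALB/c mice. All cells carried a lentiviral short hairpin RNA, either scrambled (shCtrl, 4 libraries) or directed at Tlr7, the gene of an endosomal receptor for single-stranded RNA (shTlr7, 4 libraries), and all spheroids were formed in hanging drops. A single hairpin against Tlr7 is described in the labels, so an effect of Tlr7 loss and another effect of that hairpin cannot be told apart. Whether each library came from a culture of its own is not stated, and the p-values therefore cover the spread among these 8 libraries alone, which may be technical.

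Library totals ran from 18.1 to 93.8 M counts. Tlr7 itself had 2, 3, 2 and 2 counts in the shCtrl libraries and 0, 4, 3 and 0 in the shTlr7 libraries, too few to check the labels. In the libraries with 0 counts, the level of 3 counts gives an upper limit, for counting error only: 0.166 CPM (counts scaled to a common library total) for shTlr7 replicate 1, and 0.106 CPM for replicate 4. Of 8 epithelial markers, 7 were tested, and their summed level was 5470 to 5980 CPM in shCtrl and 4260 to 4740 CPM in shTlr7, with Krt5 at 0 in every library. The markers went both ways. Mean levels of Krt7, Krt18, Krt8 and Krt14 were lower (1450 against 633 CPM for Krt7 and 36.2 against 3.25 CPM for Krt14). Epcam and Cdh1 were higher (441 against 505 CPM for Cdh1), and Cldn4, at 535 against 673 CPM, did not pass the test. Of 7 leukocyte markers, 6 stayed under 1 CPM in every library, among them Ptprc, Cd3e and Itgam, and 3 of the 6 were at 0, among them Lyz2 and Adgre1. For the leukocyte markers the summed level of 22.2 to 26.9 against 31.1 to 44.1 CPM was nearly all Cd68. Fibroblast markers summed to 43.8 to 45.2 against 43.0 to 47.8 CPM, nearly all Pdgfra. Endothelial, muscle and adipocyte markers each summed to under 1 CPM in every library. The part of these marker shifts in the results below was not tested. In bulk RNA, fewer cells of a type and less RNA per cell cannot be told apart.

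The respiratory chain sits in the inner mitochondrial membrane. Complexes I and II take electrons from NADH and succinate and pass them to coenzyme Q, complex III hands them to cytochrome c, and complex IV gives them to oxygen. Complexes I, III and IV pump protons as they do so, and complex V, the ATP synthase, lets the protons back to make ATP. Apart from complex II and cytochrome c, each machine joins nuclear-encoded subunits to a few made from mitochondrial DNA. The table holds 0 protein-coding genes of mitochondrial DNA under symbols starting with mt-, and other names were not searched. Only the nuclear side is described.

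Promoters of many of these genes are known to carry sites for the factors NRF1, the ETS-family factor GABP, and YY1. Windows from 250 bases before to 50 after the gene start were found in RefSeq (GRCm38.p6) for 79 of the 99 genes and for 72 of the 85 tested. Both strands were searched for the letters of NRF1 (GCGCA, any base, then GCGC), of ETS factors (CCGGAAG) and of YY1 (AAGATGGCG), which do not overlap one another in the stretches shown. The NRF1 letters stood in 25.0% of the windows of tested respiratory chain genes, in 9.29% of the windows of all tested genes and in 4.6% of all 32851 windows. The ETS letters stood in 23.68%, 16.49% and 8.86% of the same windows, and the YY1 letters in 10.53%, 2.8% and 1.4%. At least one of the 3 motifs was present in 37 of the 72 genes, and 7 genes held more than one. Stretches upstream of the start are shown for 5 genes, 5′ to 3′ on the strand of the gene, with the motif letters of either strand in capitals. Cox6a1 carries the NRF1 letters in 2 places, and it has ETS letters nearer the start, outside the stretch shown. Sdhd and Atp5h carry NRF1 and ETS letters, Uqcr11 carries ETS letters, and Sdha carries the NRF1 letters in 3 places. Cox6a1, Sdhd and Uqcr11 were higher in the shTlr7 libraries, while Sdha and Atp5h did not pass the test.
Cox6a1, chr5:115349051-115349135, minus strand: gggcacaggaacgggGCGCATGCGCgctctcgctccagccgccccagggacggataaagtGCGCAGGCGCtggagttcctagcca
Sdhd, chr9:50603874-50603943, minus strand: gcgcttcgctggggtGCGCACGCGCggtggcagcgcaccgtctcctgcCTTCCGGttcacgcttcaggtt
Uqcr11, chr10:80406861-80406907, minus strand: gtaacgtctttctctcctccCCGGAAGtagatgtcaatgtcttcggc
Sdha, chr13:74350241-74350353, minus strand: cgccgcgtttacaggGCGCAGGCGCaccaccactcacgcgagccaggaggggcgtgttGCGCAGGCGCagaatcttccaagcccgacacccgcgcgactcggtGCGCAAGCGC
Atp5h, chr11:115419939-115420072, minus strand: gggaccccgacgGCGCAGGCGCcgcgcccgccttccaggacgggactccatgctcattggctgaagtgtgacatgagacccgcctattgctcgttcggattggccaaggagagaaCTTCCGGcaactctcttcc

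Most respiratory chain genes differed little between the groups, and those that did were mostly higher in shTlr7. Of the 85 tested, 28 were higher and 7 lower at an adjusted p under 0.05 (edgeR's quasi-likelihood test, Benjamini-Hochberg over 13342 genes), which is 41.2% called. Across all genes tested 56.0% were called, 28.7% higher and 27.2% lower, so the share called was below that background. The share higher, 32.9%, was near the background of 28.7%, and the share lower, 8.24%, was under the 27.2% of all genes. The median log2 fold change (shTlr7 against shCtrl) was 0.09 for the tested respiratory chain genes and 0.01 for all genes tested. The changes were small. Log2 fold changes lay between -0.30 and 0.52, 0 reached 1.5-fold in either direction (17.8% of all genes did, and 7.47% reached 2-fold), and 15 of 85 reached 1.2-fold (17.6%, against 45.4% of all genes). Within 0.2 on the log2 scale lay 60 of the 85 (70.6%, against 44.3% of all genes). All 4 libraries of one group lay above all 4 of the other in 29 of the 85 genes (34.1%, against 49.8% of all genes). In 24 of them shTlr7 was higher (25.6% of all genes) and in 5 lower (24.1% of all genes). The median level was 49.9 CPM for these genes and 31.2 CPM for all genes tested.

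**Figure D1:**
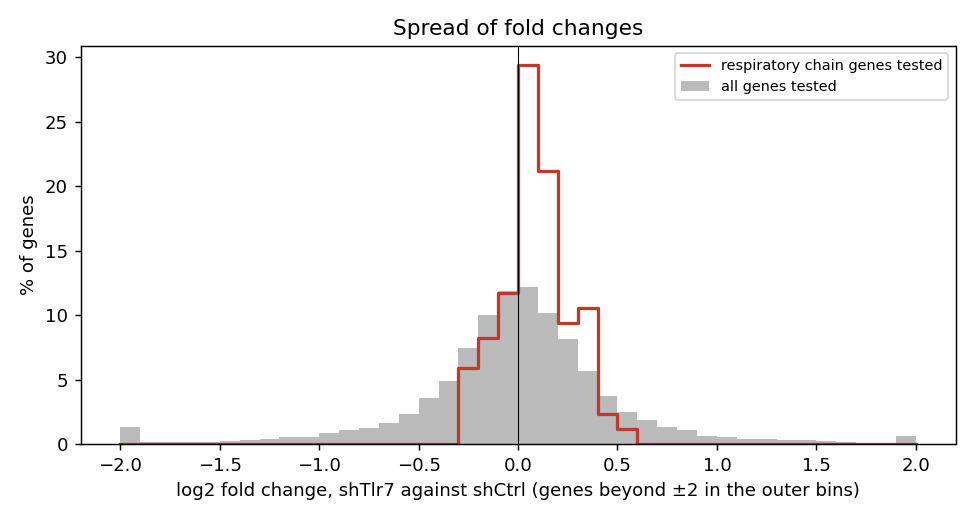
Share of genes (%, vertical axis) in bins of log2 fold change of shTlr7 against shCtrl (horizontal axis), with grey bars for all 13342 genes tested and a red line for the 85 respiratory chain genes. The red line is narrow and lies mostly to the right of 0, and its genes run from -0.30 to 0.52.

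One control library bears on all of these counts. The summed level of the 85 genes was 7592, 7610, 7588 and 6842 CPM in shCtrl replicates 1 to 4 and 7820, 8193, 8197 and 7738 CPM in shTlr7 replicates 1 to 4. The groups did not overlap, but shCtrl replicate 4 lay well under the other 3 controls. It held the lowest shCtrl value of 70 of the 85 genes, while it held the lowest value of 37.4% of all genes tested. In shTlr7, replicate 4 held the lowest value of 48 of 85 (31.3% of all genes). The summed level was 1.08 times the shCtrl mean with all libraries and 1.05 times without shCtrl replicate 4. Without that library 23 genes were higher and 9 lower, against 29.4% and 28.1% of all genes, and the median log2 fold change was 0.05. Without both libraries numbered 4 the counts were 28 higher and 9 lower, against 31.3% and 30.1% of all genes, and the median was 0.07.

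**Figure D2:**
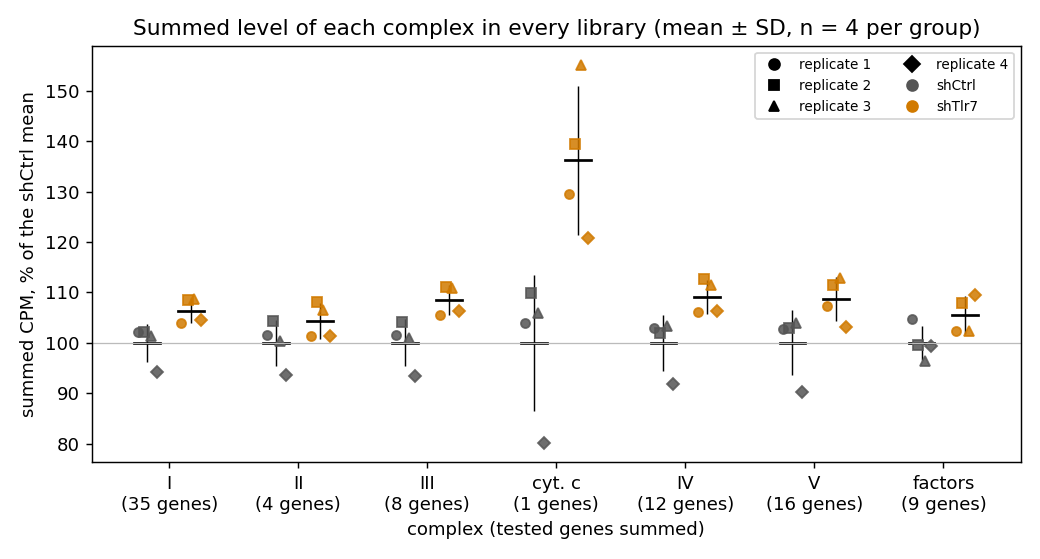
Summed CPM of the tested genes of each complex in every library (vertical axis, % of the shCtrl mean) by complex (horizontal axis), with symbols for replicates, grey for shCtrl, orange for shTlr7, and bars for mean ± SD (n = 4). The shCtrl replicate 4 diamond is the lowest control in complexes I to V and for cytochrome c.

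With library size alone in place of TMM scaling, the median of all genes went from 0.01 to 0.11 and that of the respiratory chain genes from 0.09 to 0.20. Of the latter, 56 were higher and 2 lower, against 41.2% and 18.6% of all genes. The 28 higher genes had a positive log2 fold change and the 7 lower ones a negative one under every setting run. Of them, 22 of the 28 and 2 of the 7 (Ndufaf7 and Ndufb3) passed the test in every setting.

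**Figure D3:**
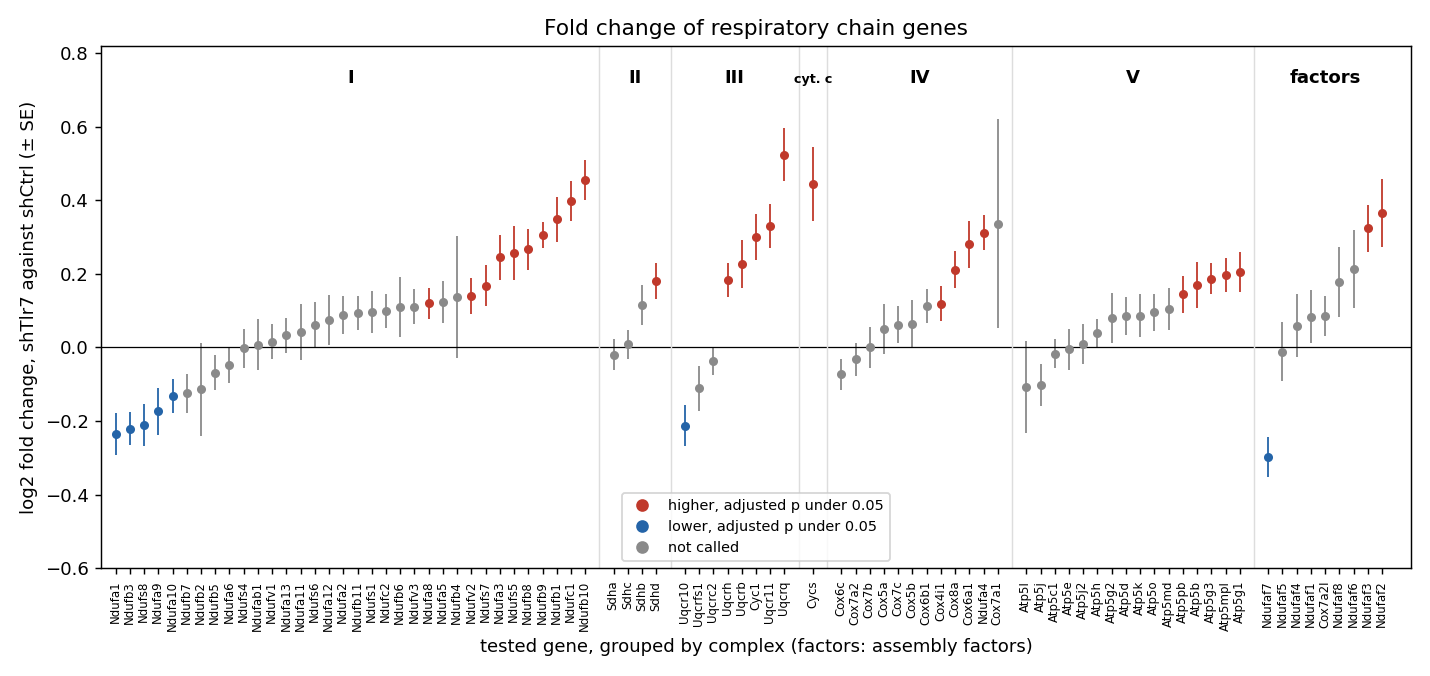
Log2 fold change ± SE of the tested genes (vertical axis; 1 of the 85 is not shown), grouped by complex and ordered by size (horizontal axis), with red for higher, blue for lower and grey for not called. The largest rise is Uqcrq at 0.52 and the largest fall Ndufaf7 at -0.30.

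Of the 18 tested genes with the NRF1 letters, 5 were higher (Ndufa8, Ndufs5, Atp5g3, Cox6a1 and Sdhd), 0 were lower and 13 did not pass the test. Of the 54 without them, 17 were higher, 7 lower and 30 did not pass. For the ETS letters, 5 were higher, 1 lower and 12 not called among 18 genes, against 17, 6 and 31 among the others. For the YY1 letters, 2 were higher, 1 lower and 5 not called among 8 genes, against 20, 6 and 38 among the others. Against the 28.7% higher and 27.2% lower of all genes tested, the share higher was near the background with each motif and without it. A match of letters is a description and not a site.

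Complex III had the largest median of the complexes with more than one gene. Of its 8 tested genes, 5 were higher (62.5%, against 28.7% of all genes), 1 was lower and 2 did not pass, with a median log2 fold change of 0.205. Without shCtrl replicate 4 the counts were 5 and 2. Differences between complexes were not tested. The 5 small accessory subunits that surround the catalytic core all passed the test, 4 of them higher, where 56.0% of all genes passed.

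Gene positions are those of RefSeq on GRCm38. Uqcrq (chr11:53427922-53430831), a small subunit that packs against cytochrome b, had 42.8, 37.8, 40.9 and 33.6 CPM in shCtrl and 53.5, 53.0, 61.0 and 55.0 CPM in shTlr7. Every shTlr7 library lay above every shCtrl library. It was the largest rise of all 85 genes, with a log2 fold change of 0.52 ± 0.07 (SE) and an edgeR adjusted p of 3.56e-05. Uqcr11 (chr10:80402997-80406821), one of the smallest accessory subunits, had 34.1, 33.6, 34.8 and 29.7 CPM against 39.9, 43.6, 42.7 and 39.6 CPM. The groups were again apart (0.33 ± 0.06, edgeR adjusted p = 0.000334). The hinge protein Uqcrh, which helps cytochrome c1 meet cytochrome c, rose by 0.18 ± 0.05 on the log2 scale and Uqcrb by 0.23 ± 0.07. For Uqcrb, 43.2% of the 50-base windows of its coding transcripts also occur in transcripts of other genes, so its count is uncertain. Uqcr10, another accessory subunit, went the other way, with 27.9, 30.0, 28.6 and 26.8 CPM in shCtrl and 24.9, 24.8, 25.3 and 22.9 CPM in shTlr7. The groups did not overlap (-0.21 ± 0.06, edgeR adjusted p = 0.00594). Under library size alone its adjusted p was 0.117.

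The catalytic subunits of complex III were split. Cyc1 (chr15:76343513-76346260), cytochrome c1, had 86.9, 89.7, 86.8 and 73.3 CPM in shCtrl and 97.2, 105, 112 and 101 CPM in shTlr7. It was higher in all 4 shTlr7 libraries, by 0.30 ± 0.06 (edgeR adjusted p = 0.00123). Uqcrfs1, the Rieske iron-sulfur protein, had a mean of 94.7 ± 8.10 CPM (SD, n = 4) against 87.7 ± 4.52 and did not pass (-0.11 ± 0.06, edgeR adjusted p = 0.136). Without shCtrl replicate 4 it was called lower, at -0.17 and an edgeR adjusted p of 0.00711. Uqcrc2, a core protein without redox centres, had 169 ± 4.87 against 165 ± 1.41 CPM and did not pass. The other core protein, Uqcrc1, had 5 counts over all 8 libraries and was not tested.

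Cytochrome c, the soluble carrier between complexes III and IV, was higher in shTlr7. Cycs (chr6:50562563-50566569) had 24.7, 26.1, 25.2 and 19.0 CPM in shCtrl and 30.7, 33.1, 36.8 and 28.7 CPM in shTlr7. The lowest shTlr7 value lay above the highest shCtrl value, and both replicates numbered 4 were the lowest of their group. It rose by 0.44 ± 0.10 on the log2 scale (edgeR adjusted p = 0.00254), and by 0.35 without shCtrl replicate 4. Cycs has many processed copies in the mouse genome, and 28.2% of the 50-base windows of its coding transcripts occur in transcripts of other genes.

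Complex I, the largest complex, had 10 of 35 tested genes higher and 5 lower (28.6% and 14.3%, against 28.7% and 27.2% of all genes), with a median log2 fold change of 0.09. Without shCtrl replicate 4 the counts were 8 and 6 and the median 0.03. Leaving out shCtrl replicate 1, 2 or 3 or shTlr7 replicate 1, 2 or 4 left 3 genes lower. Complex I held 5 of the 7 lower genes. By part, 4 of 11 tested B subunits, which build the far end of the membrane arm, were higher and 1 was lower. Of 18 tested other accessory subunits 4 were higher and 3 lower, and of 6 tested core subunits 2 were higher and 1 lower.

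The largest rises in complex I were in the membrane arm. Ndufb10 (chr17:24722060-24724423) had 32.6, 35.2, 34.2 and 34.5 CPM in shCtrl and 44.0, 48.2, 44.8 and 50.1 CPM in shTlr7. Its groups stood far apart, by 0.46 ± 0.05 (edgeR adjusted p = 9.12e-06). Ndufb9 (chr15:58933801-58939516), the most abundant complex I gene per kilobase of transcript (312 CPM per kilobase in shCtrl), had 218, 221, 224 and 216 against 264, 273, 272 and 276 CPM. The gap between the groups was far wider than the spread within them (0.30 ± 0.04, edgeR adjusted p = 8.3e-06). The count of Ndufb9 is uncertain, since 23.4% of its windows occur elsewhere and 19.5% of its exons overlap Gm49356.

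Ndufc1 (chr3:51405479-51408955), a small subunit of the membrane arm, had 24.1, 25.8, 23.6 and 24.9 CPM in shCtrl and 34.1, 33.1, 32 and 31.1 CPM in shTlr7. All shTlr7 values exceeded all shCtrl values (0.40 ± 0.05, edgeR adjusted p = 3.07e-05). Ndufb1 rose by 0.35 ± 0.06 on the log2 scale and Ndufb8, a subunit often used as a blot marker of assembled complex I, by 0.27 ± 0.06. Ndufs5 rose by 0.26 ± 0.07 and Ndufa3 by 0.24 ± 0.06, both without overlap of the groups. For Ndufs5, 21.7% of the windows occur in other genes.

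The lower accessory subunits included Ndufa1 and Ndufb3, both needed for the membrane arm to assemble. Ndufa1 (chrX:37187588-37191238) had 21.2, 21.1, 21.4 and 20 CPM in shCtrl and 17.8, 18.3, 17.9 and 16.9 CPM in shTlr7. It was lower in all 4 shTlr7 libraries (-0.24 ± 0.06, edgeR adjusted p = 0.0031), with an adjusted p of 0.0623 under library size alone. Ndufb3 (chr1:58586397-58595964) had 38.6, 40.3, 41.5 and 40.4 CPM against 34.5, 34.2, 34.6 and 34.7 CPM. The 4 shTlr7 libraries were almost equal and lay under all shCtrl libraries (-0.22 ± 0.05, edgeR adjusted p = 0.00101). Ndufa9 and Ndufa10, at -0.17 ± 0.06 and -0.13 ± 0.05, overlapped between groups.

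The core subunits of complex I carry its flavin and iron-sulfur clusters. Ndufs8 was lower, with 56.2, 54.7, 54.3 and 49.9 CPM in shCtrl and 42.0, 46.9, 49.3 and 47.3 CPM in shTlr7. Its groups lay side by side without overlap (-0.21 ± 0.06, edgeR adjusted p = 0.00629), with an adjusted p of 0.136 under library size alone. Its neighbour in the chain of clusters, Ndufs7, rose by 0.17 ± 0.06 with overlapping groups, and Ndufv2 rose by 0.14 ± 0.05. Ndufs1 and Ndufv1 did not pass, at 0.10 ± 0.06 and 0.02 ± 0.05, and the latter turned to -0.02 without both libraries numbered 4. Ndufs1 passed without shTlr7 replicate 4, at an edgeR adjusted p of 0.0312. Ndufs3, also a core subunit, had 1 count in all and could not be tested.

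Several complex I calls lay near the threshold and were lost with fewer libraries, at log2 fold changes of much the same size where the values are given. Ndufa8, at 0.12 ± 0.04, had edgeR adjusted p values of 0.0509, 0.0727 and 0.0557 without shCtrl replicates 1, 3 and 4, at 0.12, 0.11 and 0.10. With each library's trend over GC content and length removed, its value was 0.07 (edgeR adjusted p = 0.157). Ndufv2 had 0.0579 and 0.0603 without shCtrl replicates 1 and 4 and 0.0753 without shTlr7 replicate 2, at 0.14, 0.10 and 0.12. Ndufs7 had 0.0547 and 0.053 without shCtrl replicates 2 and 3, both at 0.16. Its value was 0.09 with the GC and length trend removed (edgeR adjusted p = 0.126). Ndufa9 lost its call without any of the libraries but shCtrl replicate 4, with edgeR adjusted p values from 0.0536 to 0.0977 and log2 fold changes from -0.18 to -0.15. Ndufa10 lost its call without shCtrl replicate 1, 2 or 3 or without shTlr7 replicate 1, 2 or 4, with edgeR adjusted p values from 0.052 to 0.099 and log2 fold changes from -0.14 to -0.10.

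**Figure D4:**
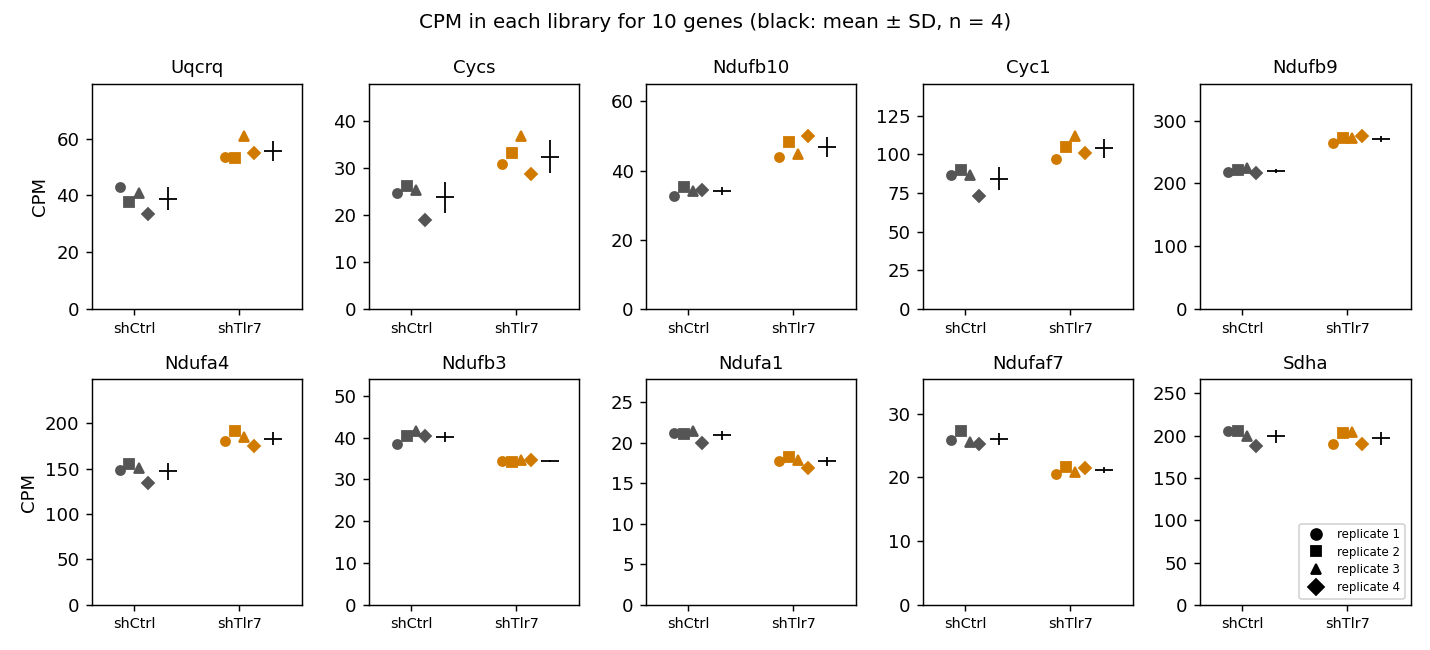
CPM in each library (vertical axes, from 0) for 10 genes in shCtrl (grey) and shTlr7 (orange), with symbols for replicates and black marks for mean ± SD (n = 4). The first 6 genes are higher in all shTlr7 libraries, Ndufb3, Ndufa1 and Ndufaf7 are lower in all of them, and Sdha overlaps.

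Complex II, succinate dehydrogenase, is wholly nuclear-encoded and also works in the tricarboxylic acid cycle. One of its 4 genes, Sdhd, was higher (25.0%, against 28.7% of all genes). Sdhd (chr9:50596340-50603849), part of the membrane anchor, had 137, 147, 139 and 126 CPM in shCtrl and 153, 163, 156 and 151 CPM in shTlr7, without overlap (0.18 ± 0.05, edgeR adjusted p = 0.00608). Its anchor partner Sdhc had 136 ± 3.24 against 137 ± 4.60 CPM (SD, n = 4), and the flavoprotein Sdha 199 ± 8.10 against 197 ± 7.66 CPM. The iron-sulfur subunit Sdhb had 105, 108, 105 and 91.6 CPM in shCtrl and 107, 112, 118 and 107 CPM in shTlr7, which overlap (0.12 ± 0.05, edgeR adjusted p = 0.0858). Without shTlr7 replicate 4 it passed, at 0.0481. The promoters printed above for Sdhd and Sdha both hold the NRF1 letters.

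Complex IV, cytochrome c oxidase, had 4 of 12 tested genes higher (33.3%, against 28.7% of all genes) and 0 lower (27.2% of all genes), with a median log2 fold change of 0.09. Without shCtrl replicate 4 it had 3 higher. Ndufa4 (chr6:11900372-11907450), named for complex I but found in complex IV, had 148, 155, 151 and 134 CPM in shCtrl and 180, 191, 185 and 175 CPM in shTlr7. Its groups were well apart (0.31 ± 0.05, edgeR adjusted p = 0.000101). Cox6a1, the general form of a regulatory subunit, had 156, 140, 152 and 126 against 168, 175, 188 and 166 CPM, also without overlap (0.28 ± 0.06, edgeR adjusted p = 0.00238). Cox8a had 211, 204, 215 and 188 against 231, 252, 236 and 226 CPM. It too was higher in all 4 shTlr7 libraries (0.21 ± 0.05, edgeR adjusted p = 0.00255).

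Cox4i1, the largest nuclear subunit, had 266, 253, 253 and 236 CPM in shCtrl and 256, 275, 278 and 285 CPM in shTlr7, so its groups overlapped. It only just passed (0.12 ± 0.05, edgeR adjusted p = 0.0448). Leaving out any of shCtrl replicates 2, 3 and 4 or shTlr7 replicates 2, 3 and 4 ended the call, with edgeR adjusted p values from 0.0706 to 0.0962, as did DESeq2 at 0.052 and limma-voom at 0.0512. With the GC and length trend removed the value was 0.05 (edgeR adjusted p = 0.307). Cox6b1 had 81.2, 76.9, 85.7 and 77.1 against 83.5, 89.0, 87.6 and 85.9 CPM and just missed (0.11 ± 0.05, edgeR adjusted p = 0.0547). Without shCtrl replicate 3 it passed at 0.0258 and without shTlr7 replicate 1 at 0.042.

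Complex IV has forms made in certain tissues beside the general ones, and these were at or near 0. Over all 8 libraries Cox4i2, the lung and hypoxia form, had 23 counts, the heart and muscle form Cox6a2 21, the testis form Cox6b2 8, Cox7b2 1, Cox8b 3, Cox8c 0 and Ndufa4l2, a hypoxia-linked relative of Ndufa4, 8. None was tested. Cox7a1, the heart and muscle form of subunit 7a, was the exception that passed the filter, with 0.162, 0.448, 0.408 and 0.529 CPM in shCtrl and 0.587, 0.495, 0.570 and 0.437 CPM in shTlr7. Its groups overlapped (0.34 ± 0.28, edgeR adjusted p = 0.331). The general form Cox7a2 had 99.6, 102, 96.1 and 91.3 against 94.4, 98.5, 96.5 and 90.9 CPM, and did not pass. Cox7b, the general partner of Cox7b2, had 86.0, 86.2, 86.2 and 72.8 against 81.9, 85.4, 81.8 and 82.1 CPM, and did not pass either. Per kilobase of transcript, the mean level of Cox7a1 was 0.882 CPM in shCtrl and 1.19 in shTlr7, against 147 and 144 for Cox7a2. Per kilobase, Cox4i2 was at 0.0395 and 0.145 CPM against 338 and 368 for Cox4i1.

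Complex V had 5 of 16 tested genes higher (31.2%, against 28.7% of all genes) and 0 lower (27.2% of all genes), with a median log2 fold change of 0.09. Without shCtrl replicate 4, shTlr7 replicate 2 or shTlr7 replicate 3 it had 3 higher. The called genes were 2 of the 3 c-ring genes, which encode the same mature rotor subunit, with Atp5mpl, Atp5b and Atp5pb. Atp5g3 had 254, 247, 253 and 230 CPM in shCtrl and 274, 286, 286 and 273 CPM in shTlr7, without overlap (0.19 ± 0.04, edgeR adjusted p = 0.00185). Atp5g1 had 41.5, 43.6, 42.0 and 38.6 against 44.6, 49.3, 50.2 and 46.9 CPM (0.21 ± 0.05, edgeR adjusted p = 0.00536). Both of these c-ring genes were higher in all 4 shTlr7 libraries. The third, Atp5g2, had 24.1 ± 1.55 against 25.3 ± 2.04 CPM and did not pass, and 38.3% of its windows occur in other genes. Atp5mpl, a small membrane subunit, had 58.2, 57.3, 58.9 and 55.5 against 64.6, 68.6, 67.7 and 62.3 CPM (0.20 ± 0.05, edgeR adjusted p = 0.00251).

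Atp5b (chr10:128083307-128090388), the catalytic beta subunit and the highest of the tested genes per kilobase (621 CPM per kilobase in shCtrl), had 1230, 1240, 1260 and 1030 CPM in shCtrl and 1330, 1360, 1400 and 1250 CPM in shTlr7. The groups overlapped, since shTlr7 replicate 4 lay under shCtrl replicate 3. It rose by 0.17 ± 0.06 on the log2 scale (edgeR adjusted p = 0.0337). It fell short of the threshold, at 0.10 and an edgeR adjusted p of 0.0516, without shCtrl replicate 4, and at 0.0549, 0.0669 and 0.0803 without shTlr7 replicates 1, 2 and 3. With the GC and length trend removed it was at 0.14 (edgeR adjusted p = 0.0916). Atp5pb, the peripheral stalk subunit b, rose by 0.14 ± 0.05, with edgeR adjusted p values of 0.0521 and 0.0522 without shCtrl replicates 1 and 4 and 0.0704 and 0.0699 without shTlr7 replicates 2 and 3. Atp5h, the stalk subunit d, whose promoter is printed above, had 112, 115, 116 and 108 against 114, 116, 118 and 114 CPM and did not pass (0.04 ± 0.04). Both counts are uncertain, since 22.5% of the coding windows of Atp5pb and 36.9% of those of Atp5h occur in other genes.

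The 9 assembly factors matched by the symbol rule had 2 higher and 1 lower (22.2% and 11.1%, against 28.7% and 27.2% of all genes). Ndufaf7 (chr17:78937106-78948052), a methyltransferase that acts early in complex I assembly, was the largest fall of all 85 genes. It had 25.8, 27.2, 25.5 and 25.3 CPM in shCtrl and 20.6, 21.6, 20.9 and 21.4 CPM in shTlr7. Its groups were apart by several times the spread within them (-0.30 ± 0.05, edgeR adjusted p = 0.000332). Ndufaf3, which acts on the coenzyme Q module of complex I, had 17, 15.5, 16.9 and 15.5 against 20.6, 21.3, 18.8 and 20.1 CPM. It was higher without overlap (0.32 ± 0.07, edgeR adjusted p = 0.000819). Ndufaf2, a late-stage factor, had 9.64, 8.75, 9.99 and 7.54 against 11.6, 10.8, 12.2 and 11.6 CPM (0.37 ± 0.09, edgeR adjusted p = 0.00378). Since 65.6% of its exons overlap B230220B15Rik and the strand setting of the counting is not known, reads of the pair cannot be told apart.

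Some subunits whose partners were abundant had almost no counts. Ndufs3 and Ndufa7 of complex I had 1 count each over all 8 libraries, and Uqcrc1 of complex III and Atp5a1 of complex V had 5 each. They are the 4 genes of the set that have further copies in the table, and 0 of the 4 was tested. Atp5l, subunit g of complex V, was counted at 2.57 to 3.26 CPM and Ndufb4 of complex I at 1.63 to 2.90 CPM, where 68.5% and 37.0% of their coding windows occur in other genes. Levels of these 6 genes, so low beside those of their partners, are uncertain here. Among the 13 genes with at least 20% of windows in other genes, 12 were tested, of which 5 were higher and 0 lower (41.7% and 0.0%). Among those with under 20%, 72 were tested, of which 22 were higher and 7 lower (30.6% and 9.72%). Of all genes tested, 28.7% were higher and 27.2% lower. Ndufb1, which was higher, had no coding transcript to measure and falls in neither class. Of the untested, Ndufa11b had 24 counts, Ndufb4b 0 and Ndufb4c 3.

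Genes that build and feed the chain were described from 6 lists beside the subunits. Each count is to be read against the 28.7% higher and 27.2% lower of all genes tested. Of 40 tested assembly factors outside the symbol rule, 17 were higher and 4 lower (42.5% and 10.0%), with a median log2 fold change of 0.14. In all 52.5% were called, near the 56.0% of all genes. The 3 with the lowest p were Foxred1, a complex I assembly factor (0.41 ± 0.05), Atpaf2, which assembles the head of complex V (0.33 ± 0.05), and the complex IV copper protein Cox19 (0.43 ± 0.06). Uqcc2, a complex III assembly factor, was lower (-0.56 ± 0.08). Of 74 tested mitochondrial ribosomal proteins, 30 were higher and 9 lower (40.5% and 12.2%), with a median of 0.09. Mrpl4 (0.67 ± 0.06) and Mrpl51 (0.57 ± 0.05) were higher and Mrps28 (-0.67 ± 0.08) was lower.

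Coenzyme Q synthesis supplies the lipid carrier between complexes I, II and III. All 13 of its listed genes were tested, 8 were higher and 2 lower (61.5% and 15.4%), and the median log2 fold change was 0.23, the largest of the 6 lists. Coq9, a lipid-binding protein of the pathway, had 34.6 ± 0.998 CPM in shCtrl and 51.8 ± 1.90 in shTlr7 (SD, n = 4), a log2 fold change of 0.59 ± 0.05 (edgeR adjusted p = 2.76e-07). Coq10b (0.71 ± 0.09) and Coq10a (0.67 ± 0.09) were higher as well, with larger log2 fold changes than Uqcrq. These genes count among the 13 listed, though their proteins are not enzymes of the synthesis. Coq7, a hydroxylase of the pathway, went the other way, from 14.0 ± 1.75 to 9.20 ± 0.619 CPM (-0.61 ± 0.09, edgeR adjusted p = 9.12e-05).

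Regulators of mitochondrial biogenesis and of mitochondrial DNA transcription and replication went both ways. Of 20 tested, 6 were higher and 4 lower (30% and 20%), with a median of -0.02. The coactivator Ppargc1b rose from 4.00 ± 0.276 to 6.98 ± 0.420 CPM (SD, n = 4; 0.81 ± 0.10, edgeR adjusted p = 1.08e-05). The methyltransferase Tfb1m, which modifies mitochondrial ribosomal RNA, rose from 6.06 ± 0.744 to 11.3 ± 0.421 CPM (0.89 ± 0.09, edgeR adjusted p = 3.14e-06). The mitochondrial DNA polymerase Polg rose by 0.32 ± 0.05 on the log2 scale. Among the lower ones were Gabpb1, a subunit of GABP (-0.21 ± 0.04, edgeR adjusted p = 0.000599), and Yy1 (-0.16 ± 0.04, edgeR adjusted p = 0.00283). Nrf1 did not pass (-0.04 ± 0.04), and under library size alone its value was 0.06.

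Among 24 tested genes of the tricarboxylic acid cycle and pyruvate dehydrogenase, 6 were higher and 4 lower (25.0% and 16.7%), with a median of 0.07. Without shCtrl replicate 4 the lower genes were 7. Pdk2, a kinase that inhibits pyruvate dehydrogenase, rose by 0.86 ± 0.11, Pdhb, a subunit of that enzyme, by 0.28 ± 0.05, and Ogdh, of the 2-oxoglutarate dehydrogenase complex, by 0.36 ± 0.06. Fh1, fumarate hydratase, was lower (-0.26 ± 0.05). Of 14 genes of cristae and the MICOS complex, which shape the inner membrane, 3 were higher and 1, Phb, lower (21.4% and 7.14%), with a median of -0.01. The lower count was 3 without shCtrl replicate 4, 2 without shTlr7 replicate 3 and 0 without any other single library. Micos13 (0.21 ± 0.05), Micos10 (0.21 ± 0.05) and Immt (0.14 ± 0.05) were the higher ones. Immt overlapped between groups and lost its call without shCtrl replicate 1 or 4 or shTlr7 replicate 1, 2 or 3, with edgeR adjusted p values from 0.0627 to 0.0845.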

How the data were processed

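RNA-seq of 4 shCtrl and 4 shTlr7 libraries was analysed from a single table that the authors deposited, which holds raw counts of reads for each gene. Per the submitters' processing notes, GRCm38, DESeq2 1.32.0 and STAR 2.7.5 were used, in roles not named. Program and strand setting of the counting, annotation and read length: not given in the sources used here. The table has 41730 rows, and 2379 with a copy suffix were summed into their gene, giving 39388 genes. No row lacked a gene name.

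Genes kept by filterByExpr (13342) were scaled by TMM and tested with edgeR 4.0.16 in R 4.3.3 (robust glmQLFit, glmQLFTest, group as the only term, Benjamini-Hochberg over all of them, threshold 0.05). Dividing a log2 fold change by the root of its F statistic gave the SE. CPM values were computed here from TMM-scaled totals, and levels per kilobase use the median length of coding transcripts in GENCODE M21. Only the upper limits for Tlr7 use raw library totals. DESeq2 1.42.0 and limma-voom (limma 3.58.1) were alternatives. The biological coefficient of variation was 6.75%. Libraries of a group differed by more than sampling noise in every pair.

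On 5 simulated tables of the same comparison, each with all 13342 genes, the test recovered 45.2% of the genes changed 1.2-fold and 82.4% of those changed 1.5-fold (250 genes a fold), and 8.26% of calls were false, above the nominal 5%. Of the 85 tested respiratory chain genes only 15 reached the smaller fold, and the shares recovered do not cover changes below it. Far fewer genes were changed in these tables than the 56.0% called in the data, so the shares recovered and false may not carry over.

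The members and lists were chosen with earlier results of these data known, and genes were assigned to complexes by known biochemistry. Any tested member could be named. Values in every library were given for the 3 members with the lowest p of each complex (2 for complex II) and the 2 largest rises and falls. They were also given for the complex IV isoform Cox7a1 and for the general partners of the isoforms. The untested isoforms were given as totals over all 8 libraries. Per list the 3 tested genes with the lowest p were named. Library values of other members, and the list genes Uqcc2, Gabpb1, Yy1, Nrf1, Fh1, Coq7 and Phb, were added after their values were seen. Shared sequence was measured as exact 50-base windows in GENCODE M21 transcripts of other genes. Promoter windows are from RefSeq (GRCm38.p6). Values of 1 tested member are not reported here.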

Additional observations from a re-analysis of the deposited data

Results flagged for a closer look

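In 6 genes with printed values, one library of a group of 4 stood apart from the other 3: its gap to the nearest of them, as a share of the range of the group, was over Dixon's 95% critical value. Chance flags about 1 in 20 groups, and both groups of 74 genes were examined, so chance alone would flag about as many. Of the 6, 3 concern shCtrl replicate 4. Atp5b was at 1030 CPM there, against 1230 to 1260 in the other shCtrl libraries, Ndufa9 at 43.1 CPM, against 52.3 to 52.9, and Coq10a at 12.4 CPM, above the other shCtrl libraries. Atp5g2 was at 22.3 CPM in shTlr7 replicate 1, under the 26.0 to 26.7 of the other shTlr7 libraries. Sdhc was at 144 CPM in shTlr7 replicate 2, above the 134 to 135 of the others. Nrf1 was at 61.4 CPM in shTlr7 replicate 3, above the other shTlr7 libraries. The causes were not tested.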

How the results depend on the processing

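The counts of 28 higher and 7 lower genes became 27 and 8 under RLE scaling, 30 and 7 under upper-quartile scaling, 27 and 7 with DESeq2, 31 and 9 with limma-voom, 25 and 7 once each library's trend over GC content and length was removed (chosen after seeing the data), and 23 to 32 and 5 to 9 when single libraries were left out. Of all genes, 28.0% were higher and 27.8% lower under RLE scaling, and 30.0% and 26.2% under upper-quartile scaling. With the GC and length trend removed these shares were 30.6% and 26.1%. Leaving out single libraries gave 3469 to 4010 higher and 3212 to 3832 lower among all genes. Shares of all genes under DESeq2, limma-voom, the stricter threshold, no filter and the replicate block are not given here. Under library size alone they were 56 and 2, with a median of 0.197, and by complex 22 higher and 1 lower in I, 3 higher in II, 0 lower in III, 7 higher in IV, 12 higher in V and 6 higher among assembly factors. All genes moved as well, to 41.2% higher and 18.6% lower from 28.7% and 27.2%. The lists then gave 1 lower assembly factor outside the rule, 10 higher and 1 lower biogenesis genes, 14 and 2 tricarboxylic acid cycle genes, 1 lower coenzyme Q gene, 6 and 0 cristae genes and 46 and 4 ribosomal proteins. At an adjusted p under 0.01, complex I had 3 lower, complex V 3 higher, and the lists 2 lower assembly factors, 1 lower coenzyme Q gene and 0 lower cristae genes. With limma-voom, 2 were lower in complex III, and the lists had 7 lower tricarboxylic acid cycle, 4 lower coenzyme Q and 2 lower cristae genes. Without the filter on low counts, 2 were higher in II and 1 lower in V, with 2 lower assembly factors and 0 lower cristae genes. Lower cristae genes were 0 under upper-quartile scaling and 2 once the GC and length trend was removed. Without both libraries numbered 4, 2 were lower in III, with 7 lower tricarboxylic acid cycle and 3 lower cristae genes. Leaving out single libraries gave 3 to 6 lower in I, 1 to 2 higher in II, 1 to 2 lower in III, 3 to 6 higher in V, 3 to 7 lower tricarboxylic acid cycle genes and 0 to 3 lower cristae genes.

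Among the genes with values given, signs turned only in those that did not pass the test. Under library size alone Atp5l was at 0.000342, Cox7a2 at 0.076, Sdha at 0.089, Uqcrc2 at 0.071 and Nrf1 at 0.064. With the GC and length trend removed, Atp5g2 was at -0.012 and Ndufv1 at -0.041. Ndufv1 was at -0.016 with limma-voom and -0.021 without both libraries numbered 4, and Sdha at 0.0045 without the filter. With single libraries left out, Ndufv1 ran from -0.015 to 0.041, Sdha from -0.047 to 0.0032 and Sdhc from -0.010 to 0.025. The causes were not tested.

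The replicate numbers were not taken to pair the libraries: deviations of same-numbered libraries correlated at -0.0013, 0.114, 0.120 and 0.383, and only the libraries numbered 4 were each other's best match. With the replicate block, 33 genes were higher and 8 lower, complex II had 2 higher, and the lists had 7 lower biogenesis and 2 lower cristae genes. Among the subunits with values given, Sdhb (adjusted p = 0.0228), Cox6b1 (0.0317) and Ndufs1 (0.036) passed in edgeR with the block and not without it. The number of counts limits genes such as Cox7a1, at under 1 CPM in every library.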
